A study of Homo sapiens with 12 samples.

Results

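The genes FKBP5, NDRG1, HERC3, ZBTB10, HOMER2, EAF2, MAF, LIFR, GNMT and CENPN are known as androgen-induced in LNCaP, a human prostate cancer cell line that responds to androgens. These 10 genes lie outside the kallikrein family, whose members include the prostate-specific antigen gene KLK3, and were chosen by name. Each was represented on the array by 1 transcript cluster carrying its symbol alone, and all 10 were among the 11105 genes tested of 14812 genes with a symbol. The data are 12 arrays (Affymetrix Human Gene 2.0 ST) in 6 groups of 2. Every group, the controls included, consisted of LNCaP cells carrying the control plasmid MSCV-LMP. In charcoal-dextran-treated serum and, separately, in full serum, cells received ethanol as vehicle, 1 nM cabazitaxel or 1 nM docetaxel, and the drug treatments lasted 16 h. No label names an androgen added to the medium, and the labels do not say whether the replicates of a group were separate cultures. The p-values therefore measure only the spread between these samples, which may be technical.

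Androgens such as testosterone and dihydrotestosterone are steroid hormones, and in luminal prostate cells they switch on secretory, metabolic and chaperone genes through response elements in DNA. Charcoal adsorbs steroid hormones and other small lipophilic molecules from serum, so cells kept in treated serum receive little androgen, but lose other hormones too. Taxanes bind and stabilise microtubules. Cabazitaxel is a close relative of docetaxel in which hydroxyl groups of the taxane core are replaced by methoxy groups. The genes described here serve different ends: FKBP5 encodes a co-chaperone of steroid receptors, ZBTB10, MAF and EAF2 act in transcription, HERC3 is a ubiquitin ligase, HOMER2 a scaffold protein, LIFR a cytokine receptor, GNMT a methyltransferase, NDRG1 a stress-response protein and CENPN a centromere protein.

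Start sites are shown for FKBP5, HERC3 and CENPN, the co-chaperone gene and the genes with the largest serum differences described below, so that the letters around their starts can be read beside the values. The windows are from RefSeq on GRCh38.p14, run from 250 bases before to 50 bases after an annotated start, and are written 5′ to 3′ on the gene's strand. Capitals mark AGAACA (an arm of the androgen response element), CCAAT (the CCAAT box) and GGGCGG (the GC box), each on either strand.
FKBP5, chr6:35728534-35728833, minus strand: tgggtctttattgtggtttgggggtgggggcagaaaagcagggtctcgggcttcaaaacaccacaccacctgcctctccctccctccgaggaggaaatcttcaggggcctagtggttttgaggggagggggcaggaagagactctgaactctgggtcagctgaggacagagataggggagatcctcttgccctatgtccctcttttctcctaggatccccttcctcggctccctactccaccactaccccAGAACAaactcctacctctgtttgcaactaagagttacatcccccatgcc
FKBP5, chr6:35688866-35689165, minus strand: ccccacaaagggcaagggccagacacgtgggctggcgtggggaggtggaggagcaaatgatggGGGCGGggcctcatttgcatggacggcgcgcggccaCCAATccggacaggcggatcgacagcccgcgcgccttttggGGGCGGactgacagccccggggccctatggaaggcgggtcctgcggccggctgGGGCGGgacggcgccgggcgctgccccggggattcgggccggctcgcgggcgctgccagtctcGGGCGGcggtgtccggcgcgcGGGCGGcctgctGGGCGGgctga
HERC3, chr4:88523593-88523892, plus strand: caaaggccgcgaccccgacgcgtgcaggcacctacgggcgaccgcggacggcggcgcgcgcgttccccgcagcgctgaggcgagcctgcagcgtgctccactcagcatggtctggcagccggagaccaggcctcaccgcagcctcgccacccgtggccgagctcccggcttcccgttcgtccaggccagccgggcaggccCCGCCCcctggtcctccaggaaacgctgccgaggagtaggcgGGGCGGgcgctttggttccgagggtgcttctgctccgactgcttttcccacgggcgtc
HERC3, chr4:88592230-88592529, plus strand: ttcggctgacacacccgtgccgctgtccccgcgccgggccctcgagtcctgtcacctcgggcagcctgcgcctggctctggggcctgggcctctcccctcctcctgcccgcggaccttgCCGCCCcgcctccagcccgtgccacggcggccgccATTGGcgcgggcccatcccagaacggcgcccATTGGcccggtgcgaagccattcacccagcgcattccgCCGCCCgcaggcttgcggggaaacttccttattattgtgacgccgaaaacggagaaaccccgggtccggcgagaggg
CENPN, chr16:81006964-81007263, plus strand: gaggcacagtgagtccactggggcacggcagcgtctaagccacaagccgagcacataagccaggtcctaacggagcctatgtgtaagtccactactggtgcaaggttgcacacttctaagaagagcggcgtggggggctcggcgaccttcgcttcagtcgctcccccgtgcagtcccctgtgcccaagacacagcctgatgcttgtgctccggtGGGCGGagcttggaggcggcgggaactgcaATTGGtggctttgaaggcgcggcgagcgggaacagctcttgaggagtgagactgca
Of the 10 genes, 8 were matched to 12 such windows, and none is printed for NDRG1 or ZBTB10. The full response element, in which AGAACA and TGTTCT stand 3 bases apart and which therefore contains AGAACA, was found in 0 of the 12 windows and in 0.00285% of 35116 RefSeq windows of the same length. Its arm AGAACA was found in 2 of the 12, the first FKBP5 window at position 1 from the start and a LIFR window at position -8, against 14.8% of all windows. The second FKBP5 window differs from the first: it holds 6 GC boxes and 76% G and C, against 0 GC boxes and 55.7%. GC boxes were found in 7 of the 12 windows and in 45% of all windows, and CCAAT in 7 of the 12 and in 34.6%. The TATA box TATAAA was found in 2 of the 12, for MAF and LIFR, and in 11.5% of all. These matches are letters in a short window and say nothing about binding of a factor there or elsewhere.

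Values are intensities on a linear scale. The median of all values over all arrays was 22.3, which serves here as a mark of the background, and 57.5% of values lay below 24. All 10 genes were above that median on all 12 arrays. No value was below 17.3, so every intensity may hold a constant part, which would shrink the fold change of a gene near the background. Serum differences of the 10 genes are therefore also given with 16 units taken off every intensity where that moved them by over 1.5 times or ended a call. Replicate arrays correlated at 0.986 to 0.992 over all transcript clusters. Several listed markers of other cell types lay near the background. KRT5 and CD44 of basal epithelium averaged 20.1 and 19.7, and DCN and LUM of fibroblasts 18.6 and 20.5. LYZ and CD14 of leukocytes averaged 19.6 and 20.7. Other listed markers were higher: the leukocyte-listed CD68 at 37.8, the fibroblast-listed VIM and FN1 at 33.3 and 512, and the neuroendocrine-listed INSM1 at 29.3. The summed intensity of 5 fibroblast-listed genes ran from 489 to 629 in charcoal serum and from 597 to 784 in full serum. Most of that sum was FN1, which ran from 393 to 689 over the 12 arrays. The part of this sum in the serum differences was not tested. The 11 luminal genes ran from 27.5 for KRT19 and 51.8 for KRT8 to 863 for KLK3 and 958 for FOLH1.

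The first question was how the 10 genes differed between full and charcoal serum, over all drug arms. Of the 10, 7 rose in full serum by limma at an adjusted p below 0.05: HERC3, CENPN, ZBTB10, HOMER2, EAF2, FKBP5 and NDRG1. Among all genes tested, 1.1% rose. The rises ran from 1.27-fold for NDRG1 to 1.97-fold for HERC3. The median log2 difference over the 10 genes was 0.50, against -0.0014 over all genes, and it was 0.83 with 16 units taken off. MAF, LIFR and GNMT did not pass. In these bulk samples, more RNA per cell and more cells that express a gene cannot be told apart.

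**Figure D1:**
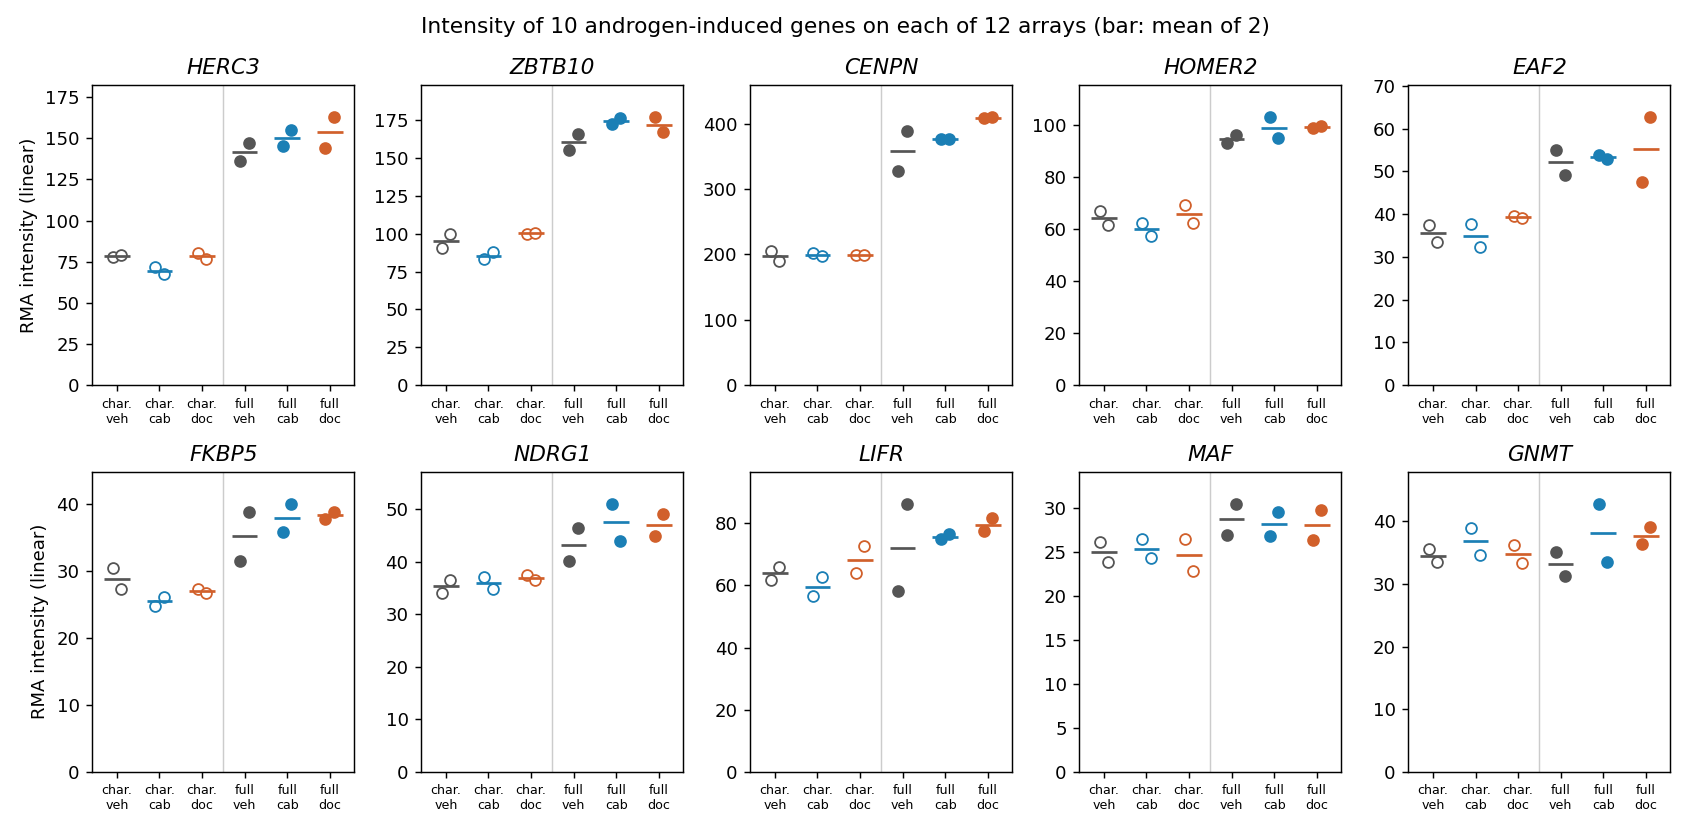
Intensity (linear scale, vertical axis) of each of the 10 genes on each of the 12 arrays, by drug arm, in charcoal and full serum. For HERC3, ZBTB10, CENPN, HOMER2, EAF2, FKBP5 and NDRG1 every full-serum array lies above every charcoal-serum array, while the sera overlap for LIFR, MAF and GNMT.

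FKBP5 encodes an immunophilin that joins HSP90 in the complexes that hold steroid receptors ready for hormone. In charcoal serum its intensities were 30.5 and 27.3 with vehicle, 24.9 and 26.2 with cabazitaxel and 27.4 and 26.8 with docetaxel. In full serum they were 31.5 and 38.9 with vehicle, 35.9 and 40.1 with cabazitaxel and 37.8 and 38.9 with docetaxel. The lowest full-serum value, vehicle replicate 1, lay just above the highest charcoal-serum value, also a vehicle array, so the sera stood closest together without drug. FKBP5 rose 1.37-fold in full serum over the 3 arms, a log2 difference of 0.45 (SE 0.06, adjusted p = 0.00205). By arm the log2 differences were 0.28 with vehicle, 0.57 with cabazitaxel and 0.50 with docetaxel, with adjusted p of 0.463, 0.0475 and 0.102. The difference with vehicle was 0.43 without vehicle replicate 1 in full serum and 0.13 without replicate 2. Among the fits that left out 1 array, the call with cabazitaxel held only without 1 of those vehicle arrays, which also brought a call with docetaxel. It was lost when any other array was left out, with log2 differences of 0.49 to 0.65 and adjusted p up to 0.469. It was also lost after 16 units were taken off every intensity (adjusted p = 0.0822) and with no filter on low genes (0.109). FKBP5 was measured close to the background. With 16 units taken off, its difference over the 3 arms was 0.92 and it rose 1.90-fold, and the arms gave 0.56, 1.20 and 1.01.

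Transcription regulators came next. ZBTB10, a BTB zinc finger protein described as a repressor of Sp factor genes, had charcoal-serum intensities of 90.4 and 99.6 with vehicle, 83.1 and 87.6 with cabazitaxel and 99.7 and 101 with docetaxel. Its full-serum intensities were 155 and 166 with vehicle, 173 and 177 with cabazitaxel and 177 and 167 with docetaxel. The sera did not overlap, and the lowest charcoal-serum values were those with cabazitaxel. ZBTB10 rose 1.81-fold, a log2 difference of 0.86 (SE 0.0442, adjusted p = 1.85e-06), and it rose in every arm: by 0.76 with vehicle, 1.03 with cabazitaxel and 0.78 with docetaxel, with adjusted p of 0.00142, 0.000129 and 0.0013.

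EAF2, a partner of the ELL elongation factors that is known as a growth-restraining androgen-response gene in prostate, stood at 37.5 and 33.4 with vehicle, 37.6 and 32.3 with cabazitaxel and 39.5 and 39.1 with docetaxel in charcoal serum. Full-serum arrays gave 55.0 and 49.2 with vehicle, 53.8 and 52.9 with cabazitaxel and 47.6 and 62.7 with docetaxel. All full-serum arrays were above all charcoal-serum arrays, but the replicates with docetaxel in full serum were the farthest apart. Over the 3 arms EAF2 rose 1.46-fold, by 0.55 (SE 0.0721, adjusted p = 0.00185) on the log2 scale. No single arm passed: the log2 differences were 0.56 with vehicle, 0.62 with cabazitaxel and 0.48 with docetaxel, with adjusted p of 0.114, 0.0925 and 0.214. With docetaxel the difference was 0.67 without replicate 1 in full serum and 0.28 without replicate 2. Leaving out either of those arrays brought a call with cabazitaxel (adjusted p = 0.0409). With 16 units taken off, the difference over the 3 arms was 0.87, and the arms gave 0.89, 0.99 and 0.72.

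MAF, a basic leucine zipper transcription factor, was measured close to the background. Its intensities in charcoal serum were 26.1 and 23.8 with vehicle, 26.5 and 24.3 with cabazitaxel and 26.5 and 22.8 with docetaxel. Those in full serum were 26.9 and 30.4 with vehicle, 26.8 and 29.6 with cabazitaxel and 26.3 and 29.7 with docetaxel. The sera overlapped with docetaxel only by the first full-serum replicate, which lay below the first charcoal-serum replicate, and the arms together overlapped by a narrow margin. Whether same-numbered arrays belong together was not tested. Their gap was larger for replicate 2 in every arm, at 30.4, 29.6 and 29.7 in full serum against 23.8, 24.3 and 22.8. Replicate 1 barely differed, with 26.9, 26.8 and 26.3 in full serum against 26.1, 26.5 and 26.5. The log2 difference of 0.18 (95% interval 0.05 to 0.31) did not pass, with an unadjusted p of 0.013 and an adjusted p of 0.19 by limma. It was 0.46, with an adjusted p of 0.212, after 16 units were taken off.

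The ubiquitin ligase HERC3 and the scaffold HOMER2 act on proteins after they are made. HERC3 carries a HECT domain, with which it passes ubiquitin to other proteins, and had charcoal-serum intensities of 77.6 and 78.9 with vehicle, 71.9 and 67.4 with cabazitaxel and 80.4 and 76.8 with docetaxel. In full serum the same arms gave 136 and 147 with vehicle, 145 and 155 with cabazitaxel and 144 and 163 with docetaxel. Each full-serum array was well above each charcoal-serum array, and the charcoal-serum arrays with cabazitaxel were the lowest of all. HERC3 rose 1.97-fold, a log2 difference of 0.97 (SE 0.0478, adjusted p = 1.85e-06), and ranked 3 among all genes tested by the size of its rise. It rose in each arm, by 0.85 with vehicle, 1.11 with cabazitaxel and 0.96 with docetaxel, with adjusted p of 0.00142, 0.000129 and 0.00055.

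HOMER2 links metabotropic glutamate receptors to calcium channels of the endoplasmic reticulum. It stood at 66.8 and 61.7 with vehicle, 62.3 and 57.2 with cabazitaxel and 69.1 and 62.4 with docetaxel in charcoal serum. With full serum the values were 92.8 and 96.0 with vehicle, 103 and 94.8 with cabazitaxel and 98.9 and 99.7 with docetaxel. The 6 full-serum values lay within a narrow band above all 6 charcoal-serum values. HOMER2 rose 1.54-fold, by 0.63 (SE 0.048, adjusted p = 3.6e-05) on the log2 scale, and also in each arm, by 0.56 with vehicle, 0.73 with cabazitaxel and 0.60 with docetaxel (adjusted p = 0.016, 0.00295 and 0.013). The vehicle call was lost when any 1 of its 4 arrays was left out, with adjusted p up to 0.155, and after 16 units were taken off, with an adjusted p of 0.114. The docetaxel call was lost without charcoal-serum docetaxel replicate 2 or either full-serum docetaxel replicate, with adjusted p up to 0.169, and after 16 units were taken off, with an adjusted p of 0.145.

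LIFR is the receptor for leukaemia inhibitory factor and signals together with gp130. Its charcoal-serum intensities were 61.8 and 66.0 with vehicle, 56.6 and 62.7 with cabazitaxel and 63.9 and 72.7 with docetaxel. Its full-serum intensities were 58.1 and 86.3 with vehicle, 74.8 and 76.5 with cabazitaxel and 77.6 and 81.6 with docetaxel. Vehicle replicate 1 in full serum lay among the charcoal-serum arrays, and the other 5 full-serum arrays lay above all 6 of them. The log2 difference of 0.24 (95% interval 0.05 to 0.43) did not pass, with an adjusted p of 0.217. Without that one array it was 0.33 and passed, with an adjusted p of 0.0117, and without vehicle replicate 2 in full serum it was 0.14.

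GNMT, which methylates glycine to sarcosine and so consumes S-adenosylmethionine, stood at 35.6 and 33.4 with vehicle, 38.9 and 34.7 with cabazitaxel and 36.3 and 33.4 with docetaxel in charcoal serum. Full-serum values were 35.0 and 31.3 with vehicle, 42.8 and 33.5 with cabazitaxel and 36.4 and 39.0 with docetaxel. The sera overlapped with vehicle and with cabazitaxel, the full-serum docetaxel arrays lay just above their charcoal-serum counterparts, and both the highest and the lowest of all 12 values came from full serum. The log2 difference was 0.03, with a 95% interval of -0.11 to 0.18 and an adjusted p of 0.912, and it was 0.05 with 16 units taken off. That interval leaves out a rise of the size seen for NDRG1 or any other of the 7 genes that rose.

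NDRG1 is a cytoplasmic protein induced by low oxygen, metal ions and differentiation as well as by androgens. Charcoal-serum intensities of NDRG1 were 34.2 and 36.5 with vehicle, 37.1 and 34.8 with cabazitaxel and 37.5 and 36.5 with docetaxel. Full-serum intensities of NDRG1 were 40.2 and 46.4 with vehicle, 51.1 and 44.0 with cabazitaxel and 44.9 and 49.2 with docetaxel. No charcoal-serum array reached the lowest full-serum array, but the margin was small. NDRG1 rose 1.27-fold, by 0.34 (SE 0.0565, adjusted p = 0.00759) on the log2 scale over the 3 arms, the smallest rise among the 7 that passed. The differences by arm were 0.29 with vehicle, 0.40 with cabazitaxel and 0.35 with docetaxel, and none passed (adjusted p = 0.384, 0.234 and 0.259). The vehicle difference was 0.19 without vehicle replicate 2 in full serum. With 16 units taken off, the difference over the 3 arms was 0.57, and the arms gave 0.49, 0.65 and 0.56.

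CENPN binds the centromeric nucleosome and helps build the kinetochore, and it was measured well above the background. Charcoal-serum arrays read 205 and 189.8 with vehicle, 201 and 198 with cabazitaxel and 199 and 199 with docetaxel. Full-serum arrays read 328 and 389 with vehicle, 377 and 376 with cabazitaxel and 409 and 410.0 with docetaxel. The charcoal-serum values were tightly grouped, and the lowest full-serum value was again vehicle replicate 1. CENPN rose 1.91-fold, by 0.94 (SE 0.0493, adjusted p = 1.85e-06) on the log2 scale, and rose in each arm, by 0.86 with vehicle, 0.92 with cabazitaxel and 1.04 with docetaxel, with adjusted p of 0.00142, 0.000755 and 0.000528.

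**Figure D2:**
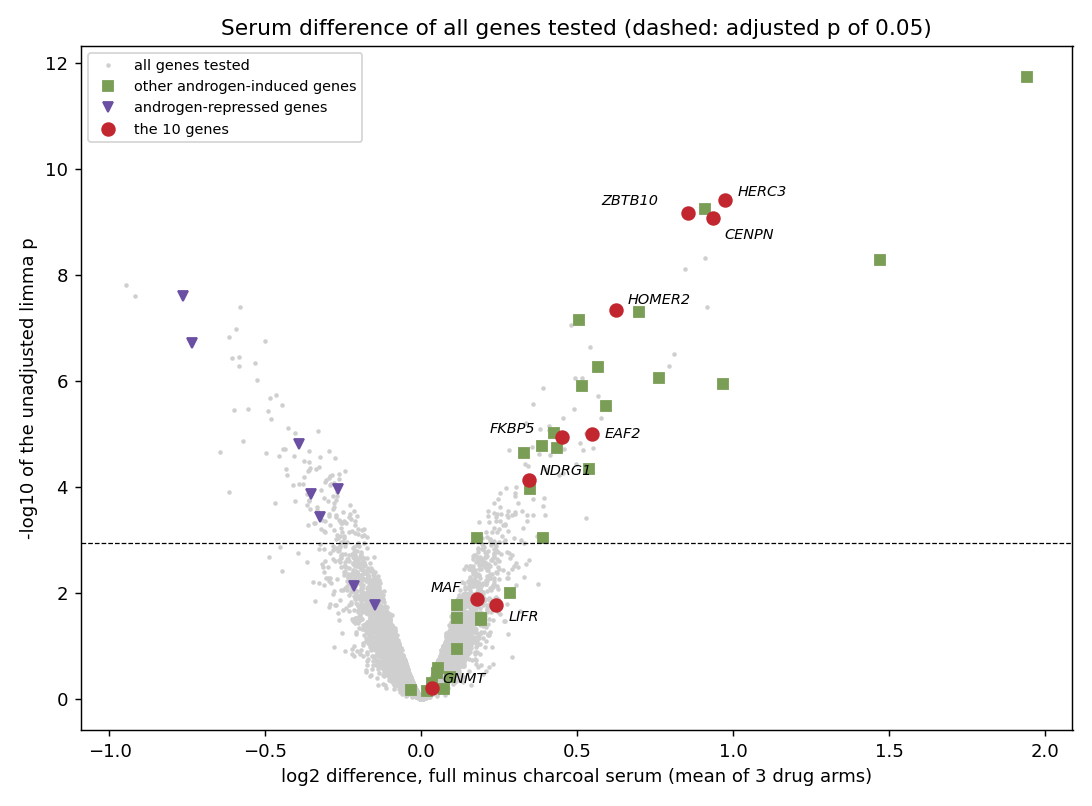
Log2 difference of full minus charcoal serum as the mean of the 3 drug arms (horizontal axis) against -log10 of the unadjusted limma p (vertical axis) for all 11105 genes tested, with the 10 genes named and the lists of other androgen-induced and androgen-repressed genes marked. HERC3, CENPN and ZBTB10 lie between 0.86 and 0.97 in the upper right, and MAF, LIFR and GNMT lie under the dashed line of an adjusted p of 0.05.

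Taken arm by arm, 4 of the 10 genes rose with vehicle (HERC3, ZBTB10, HOMER2 and CENPN), against 0.225% of all genes tested. With cabazitaxel, 5 of 10 rose, those 4 and FKBP5, against 0.261%. With docetaxel, the same 4 rose, against 0.162%. Fitted on the 4 arrays of an arm alone, 0, 3 and 3 of the 10 genes passed with vehicle, cabazitaxel and docetaxel. The median log2 difference of the 10 genes was 0.42, 0.59 and 0.49 in the vehicle, cabazitaxel and docetaxel arms, against -0.01, -0.0017 and 0.0079 over all genes. With 16 units taken off, the medians of the 10 genes were 0.63, 0.95 and 0.73. Counted by overlap, both full-serum arrays lay above both charcoal-serum arrays for 8 of 10 genes with vehicle (15.1% of all genes), 9 with cabazitaxel (17.3%) and 9 with docetaxel (20.9%). LIFR and GNMT overlapped with vehicle, GNMT with cabazitaxel and MAF with docetaxel. Over all 12 arrays the sera did not overlap for 7 of 10 genes, against 1.23% of all genes.

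**Figure D3:**
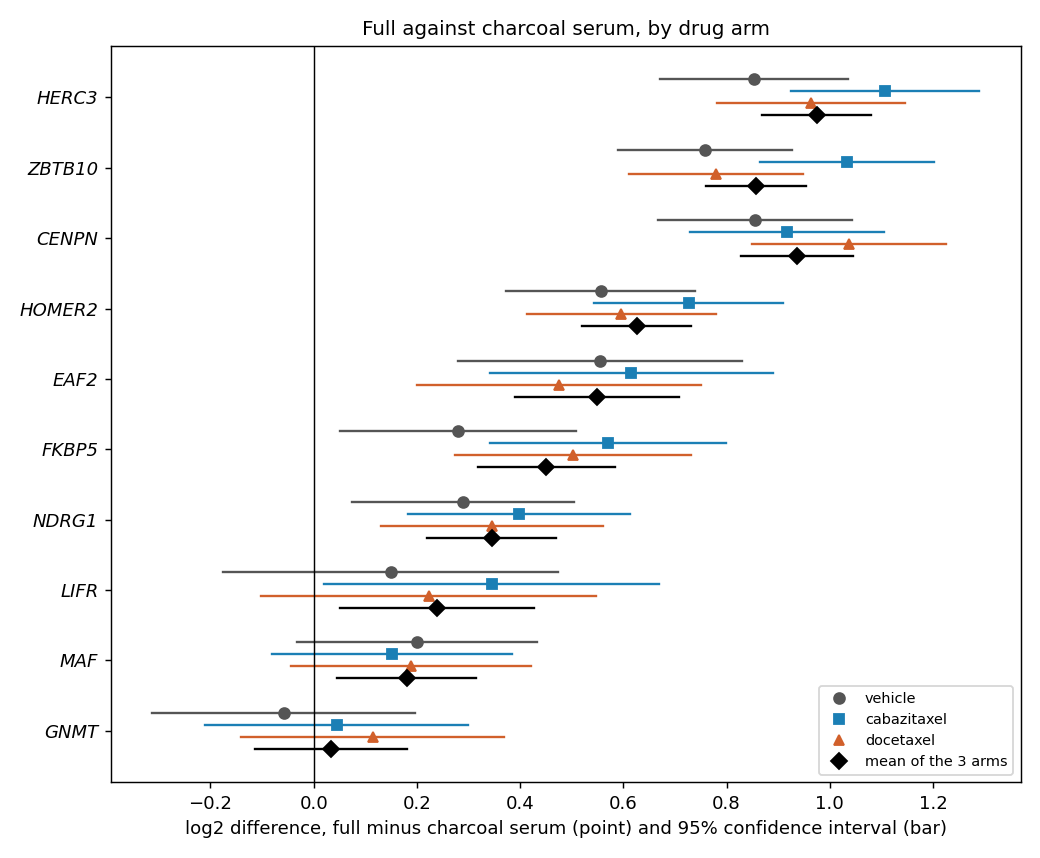
Log2 difference of full minus charcoal serum (horizontal axis) for each of the 10 genes in the vehicle, cabazitaxel and docetaxel arms, with 95% confidence intervals as bars. HERC3, ZBTB10 and CENPN lie between 0.76 and 1.11 in every arm, and the intervals of the 3 arms overlap for each gene.

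The lowest full-serum array was vehicle replicate 1 for 7 of the 10 genes (FKBP5, NDRG1, HERC3, ZBTB10, HOMER2, LIFR and CENPN), while it was the lowest for 19.2% of all genes tested. The drug differences in full serum and the interactions named next are therefore also given without it. In charcoal serum a cabazitaxel array was the lowest for 6 of the 10 genes, and for 36.4% of all genes.

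The next question was whether either taxane changed the 10 genes. In none of the 6 comparisons of a drug with vehicle (each drug in charcoal serum, in full serum and as the mean of both) did any of the 10 genes pass, and 0% of all genes passed. Between 4.02% and 6.05% of all genes had an unadjusted p below 0.05 in these comparisons. At an unadjusted p below 0.05 the limma fit gave 1 of the 10 genes in 1 of the 6 comparisons: CENPN was higher with docetaxel than with vehicle in full serum by 0.20 on the log2 scale (95% interval 0.01 to 0.38, unadjusted p = 0.0414, adjusted p = 0.942). Without vehicle replicate 1 in full serum this difference was 0.07 (unadjusted p = 0.413), and without vehicle replicate 2 it was 0.32. In that comparison 3.71% of all genes were higher at the same unadjusted p. The methods' t-test gave 0 of the 10 genes at an unadjusted p below 0.05 within either serum for either drug.

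For cabazitaxel in charcoal serum, FKBP5 differed from vehicle by -0.18 on the log2 scale (95% interval -0.40 to 0.05), HERC3 by -0.17 (-0.35 to 0.01) and ZBTB10 by -0.15 (-0.32 to 0.02). None of these differences passed. The median over the 10 genes was -0.06, and 4 of 10 were above vehicle, against 48.2% of all genes. In full serum the same genes differed by 0.11 (-0.11 to 0.34), 0.08 (-0.10 to 0.27) and 0.12 (-0.05 to 0.29), the median was 0.09, and 9 of 10 were above vehicle, against 53.3% of all genes. Without vehicle replicate 1 in full serum, the differences of FKBP5, HERC3 and ZBTB10 were -0.04, 0.03 and 0.07, 6 of 10 genes were above vehicle and the median was 0.03. When each array was left out in turn, the count ran from 2 to 5 of 10 in charcoal serum and from 6 to 10 in full serum. For docetaxel the median was 0.02 in charcoal serum, with 8 of 10 genes above vehicle against 50.8% of all genes. That count fell to 5, with a median of -0.0034 or -0.0061, without charcoal-serum vehicle replicate 2 or docetaxel replicate 1, and to 6 with quantile normalization. In full serum the docetaxel median was 0.12, with 9 of 10 genes above vehicle against 57.5%. Without vehicle replicate 1 the full-serum values for docetaxel were 0.05 and 7 of 10.

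**Figure D4:**
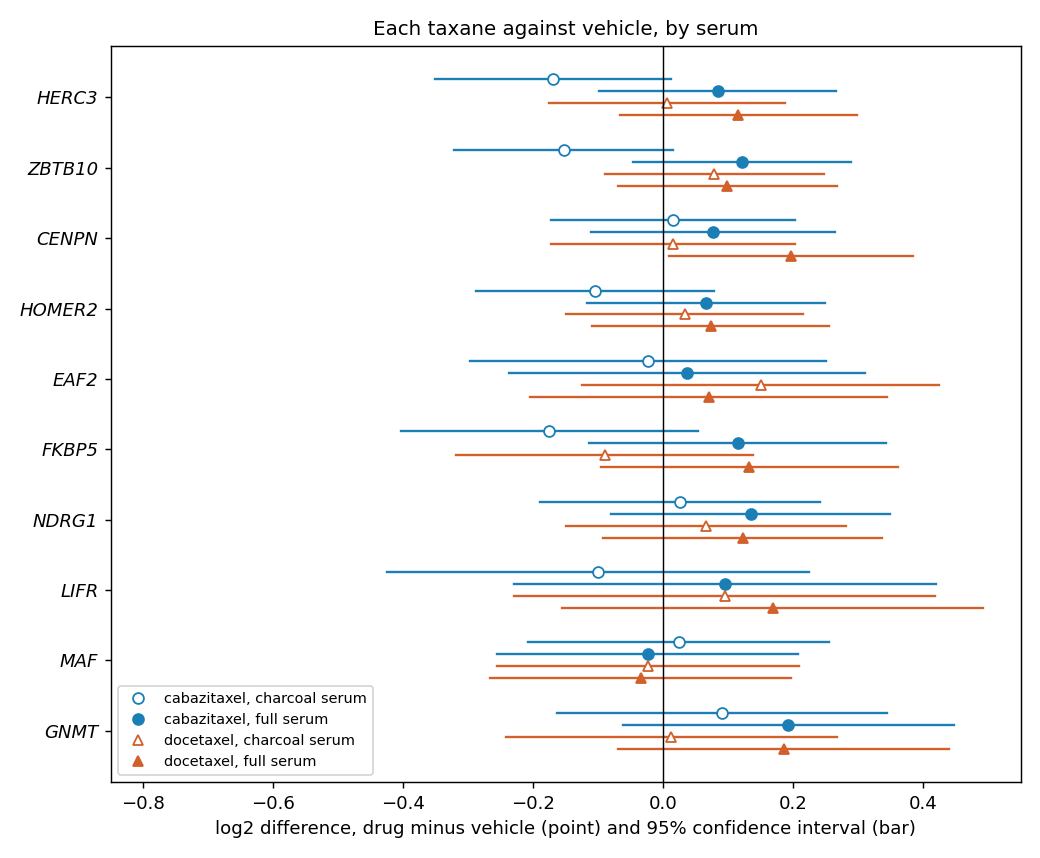
Log2 difference of each taxane minus vehicle (horizontal axis) for the 10 genes in charcoal serum (open symbols) and full serum (filled symbols), with 95% confidence intervals as bars. The only interval that leaves out 0 is that of CENPN with docetaxel in full serum, 0.01 to 0.38.

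Whether the serum difference itself depended on the drug was tested as an interaction. Neither interaction passed for any of the 10 genes, and 0% of all genes passed, with 3.42% (cabazitaxel) and 3.61% (docetaxel) at an unadjusted p below 0.05. ZBTB10 had a serum difference larger by 0.27 on the log2 scale with cabazitaxel than with vehicle (95% interval 0.04 to 0.51, unadjusted p = 0.0275, adjusted p = 0.999), and 2.04% of all genes had a larger one at an unadjusted p below 0.05. For HERC3 the value was 0.25 (unadjusted p = 0.0529) and for FKBP5 0.29 (unadjusted p = 0.0738), both with an adjusted p of 0.999. Without vehicle replicate 1 in full serum the interactions of ZBTB10, HERC3 and FKBP5 were 0.23, 0.20 and 0.14, and without vehicle replicate 2 that of FKBP5 was 0.44. With docetaxel no gene of the 10 had an unadjusted p below 0.05. FKBP5 passed in the cabazitaxel arm and not in the others, but its serum difference was not shown to differ between arms.

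The taxanes were compared at the same dose and time in 3 comparisons: charcoal serum, full serum and the mean of both. None of the 10 genes passed in any, p-values being adjusted over all genes within each comparison, and 0% of all genes passed. In charcoal serum ZBTB10 was higher with docetaxel than with cabazitaxel by 0.23 on the log2 scale (95% interval 0.06 to 0.40, unadjusted p = 0.0113, adjusted p = 0.886), and 3.13% of all genes were higher at an unadjusted p below 0.05. For HERC3 the difference in charcoal serum was 0.18 (-0.01 to 0.36). In full serum the same genes differed by -0.02 (-0.19 to 0.15) and 0.03 (-0.15 to 0.21). As the mean of both sera the differences ran from -0.04 for GNMT (-0.22 to 0.14) to 0.13 for LIFR (-0.10 to 0.36), and the median over the 10 genes was 0.07. Apart from ZBTB10 in charcoal serum, every 95% interval for the 10 genes held 0, with differences of either sign within it, so the compounds are not shown to act alike on these genes. The methods' t-test gave 1 of the 10 genes at an unadjusted p below 0.05 in charcoal serum, ZBTB10, and 1 in full serum, CENPN, and 0 after adjustment.

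Other genes known to respond to androgens were set beside the 10. Of 58 other androgen-induced genes listed, 31 were tested, 18 rose in full serum over the 3 arms and 0 fell, with a median log2 difference of 0.35. KLK2, a kallikrein given for reference, rose by 1.47, KLK3 by 0.97, the T-cell receptor gamma transcript TARP by 1.94, the kinase STK39 by 0.91 and the lipase ABHD2 by 0.76. The rises of HERC3, CENPN and ZBTB10, given above, were 0.97, 0.94 and 0.86 on the same scale. Of 21 androgen-repressed genes listed, 8 were tested, 6 fell and 0 rose, with a median of -0.34. Among all genes tested, 1.21% fell and 1.1% rose. The stress-induced sestrins SESN1 and SESN3 fell by 0.76 and 0.73, the cyclin CCNG2 by 0.39, CAMK2N1 by 0.35 and the decarboxylase DDC by 0.33. The CAMK2N1 call was lost after 16 units were taken off (adjusted p = 0.0539), and the DDC call held in 6 of 16 alternatives. These lists were drawn up with results of these data known, so their direction is not independent evidence.

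Family members and partners of the 10 genes were tested in the same way. Of 14 immunophilin relatives listed, only FKBP7 and FKBPL were tested. Both differed by 0.04, and neither passed. NDRG2, NDRG3 and NDRG4 differed by 0.04, -0.03 and 0.04 against 0.34 for NDRG1, and none passed. HERC1, HERC2, HERC4, HERC5 and HERC6 differed by -0.12, 0.04, -0.04, 0.03 and -0.04 against 0.97 for HERC3, and none passed. At an unadjusted p below 0.05 limma gave 0 genes in each of these families. Of 13 BTB zinc finger and SP genes related to ZBTB10, 1 rose, against 1.1% of all genes: the hormone-responsive regulator ZBTB16, by 0.25. Its level lay between 24.8 and 32.9, close to the background, its difference was 0.57 with 16 units taken off, and its call was lost without replicate 2 of full-serum cabazitaxel or of full-serum docetaxel.

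Among HOMER and SHANK scaffolds 0 of 4 passed, among genes of the ELL and super elongation complex that EAF2 joins 0 of 8, and in the MAF family 0 of 6. Among the partners of LIFR, which include its ligands, gp130 and the JAK-STAT genes, 0 of 16 passed, and among the genes of methionine and sarcosine metabolism around GNMT 0 of 15. In the order given, these lists held 11, 13, 10, 21 and 24 genes, and the rest were not tested. The medians of these lists lay between -0.01 and 0.05. At an unadjusted p below 0.05, limma gave 0 higher and 0 lower of the HOMER and SHANK genes, 1 and 0 of the ELL genes, 0 and 0 of the MAF family, 2 and 0 of the LIFR partners and 5 and 1 of the methionine genes, against 6.09% and 7.4% of all genes. Of 13 hypoxia genes, a class to which NDRG1 also belongs, 0 rose and 2 fell, against 1.1% and 1.21% of all genes. The sterol regulator INSIG2 fell by 0.47 and the mitophagy receptor BNIP3L by 0.23, and the median of the list was 0.01. The BNIP3L call held in 6 of 16 alternatives.

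**Figure D5:**
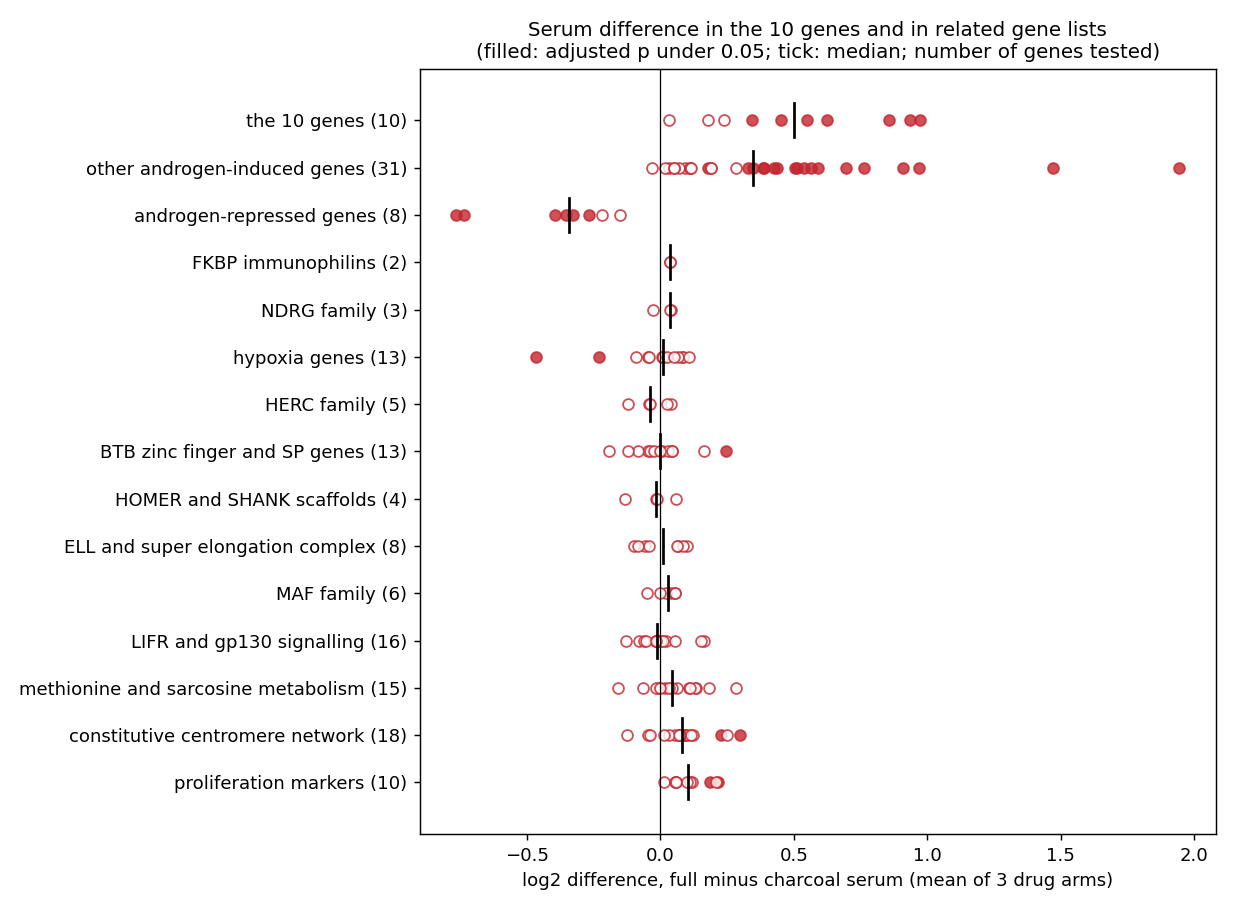
Log2 difference of full minus charcoal serum as the mean of the 3 drug arms (horizontal axis) for the 10 genes and for 14 lists of related genes, with the number of genes tested in brackets. Filled points passed an adjusted p of 0.05 and ticks are medians, which lie at 0.50 for the 10 genes, 0.35 for other androgen-induced genes and -0.34 for androgen-repressed genes.

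CENPN was examined beside the rest of the constitutive centromere network and beside proliferation markers. Of 18 centromere genes, 2 rose, the CENP-A chaperone HJURP by 0.30 and CENPU by 0.23, and the median was 0.08 against 0.94 for CENPN. HJURP kept its call in 5 of the 12 fits that left out 1 array and CENPU in 2, and neither passed after 16 units were taken off (adjusted p = 0.0955 and 0.182). Of 10 proliferation markers, 2 rose, the replication clamp PCNA by 0.22 and the cyclin CCNE2 by 0.19. All 10 differed upward, with a median of 0.11. Among all genes tested, 1.1% rose and 49.1% differed upward. PCNA kept its call in 5 of those 12 fits and CCNE2 in 1, and neither passed after 16 units were taken off. The summed intensity of the 10 markers ran from 1588 to 1606 in charcoal serum with cabazitaxel, 1637 to 1708 with docetaxel and 1740 to 1766 with vehicle. In full serum it ran from 1778 to 1852 over the 3 arms. The part of proliferation in the CENPN difference was not tested.

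For each of the 7 genes that rose, the 3 other genes with the most similar profile over the 12 arrays were found by the root mean square difference between log2 values centred on each gene's mean. STK39 was the nearest gene to HERC3 (0.06), ZBTB10 (0.07) and CENPN (0.09), whose own root mean square deviations from their means were 0.49, 0.44 and 0.48. SNAI2, a zinc finger repressor, and RASSF3, a Ras-association protein, followed for HERC3, RASSF3 and the paracaspase gene MALT1 for ZBTB10, and SNAI2 and MALT1 for CENPN. HOMER2 lay nearest the fatty acid elongase ELOVL5 (0.09), the epithelial transcription factor EHF (0.10) and C1orf116 (0.10). EAF2 lay nearest the lysophosphatidic acid receptor LPAR3 (0.08), the transcription factor SPDEF (0.10) and the kinesin KIF22 (0.13). FKBP5 lay nearest the kinase TAOK3 (0.09), the sugar-nucleotide enzyme UAP1 (0.09) and the chaperone CLGN (0.10), and NDRG1 nearest the actin-bundling protein LCP1 (0.06), the spermidine acetyltransferase SAT1 (0.08) and USP43 (0.09). The serum differences of these neighbours ran from 0.25 for SAT1 to 0.92 for MALT1. This likeness is a description over arrays that share the serum difference.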

How the data were processed

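RNA of 12 LNCaP samples, amplified and biotin-labelled per the labels' protocols, was hybridised to 12 arrays. The authors deposited 1 intensity per transcript cluster and array, normalized with RMA per the submitters' processing notes and the design text. The deposited intensities are on a linear scale, judged from their range of 17.3 to 6307. The annotation dates, the RMA version and any offset are not given in the sources used here. The design text says that low-expressing genes were filtered, but 57.5% of the deposited values lay below 24. Array precision is limited by the number of arrays, 2 per group.

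Values were taken to log2. Of 44629 transcript clusters, 15835 carried 1 gene symbol in the platform annotation, and 28794 had none or several and were left out. For the 651 genes with several clusters, the cluster with the highest mean was used. Genes above the median of all values (22.3) on at least 2 arrays were tested, 11105 of 14812. A linear model over all 6 groups was fitted in limma 3.58.1 under R 4.3.3, with p-values adjusted over all genes tested by the Benjamini-Hochberg method within each of 15 comparisons and calls made below an adjusted p of 0.05. The scripts were tested on simulated data.

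All 10 genes were named, with the genes called in each list (at most 5 by size of change), reference kallikreins, and the 3 nearest genes of each gene that rose. Families whose tested genes were all given, and the genes that check the cell type, were named outside that rule. The 10 genes, the lists, the tests and the alternatives were chosen with earlier results of these data known. After the deposited table was read, 1 gene symbol's letter case in a list was corrected and 3 older aliases of genes already listed were dropped. Listed genes that the annotation here gave no cluster of their own were not analysed here, and 1 list is not reported here. The alternatives were an offset of 16 units, quantile normalization, no filter, the replicate number as a block, only the arrays compared, the mean of all clusters of a gene, leaving out each array, and the methods' t-test.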

Additional observations from a re-analysis of the deposited data

How the results depend on the processing

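The 7 genes called over the 3 drug arms, HERC3, ZBTB10, CENPN, HOMER2, EAF2, FKBP5 and NDRG1, were called in all 17 alternatives run on that comparison, while LIFR was called in 1, and MAF and GNMT in 0. Leaving out each of the 12 arrays in turn gave 7 to 8 of the 10 genes over the 3 arms, 3 to 4 with vehicle, 4 to 5 with cabazitaxel and 3 to 5 with docetaxel. With only the arrays compared, the counts were 0 with vehicle and 3 with either taxane. These fits had fewer residual degrees of freedom than the main fit, and the reason for the lower counts was not tested. The methods' t-test gave 5, 7 and 6 of the 10 genes in the vehicle, cabazitaxel and docetaxel arms at an unadjusted p below 0.05, against 5.59%, 5.57% and 7.01% of all genes, and 0 of the 10 genes in each arm after Benjamini-Hochberg adjustment. With an offset of 16 taken off, 132 genes of all those tested were called over the 3 arms in place of 256, and 16, 10 and 9 in the vehicle, cabazitaxel and docetaxel arms in place of 44, 44 and 35. Without a filter on low genes the cabazitaxel and docetaxel arms gave 25 and 22, and with only the arrays compared the 3 arms gave 1, 7 and 12. Leaving out 1 of the arrays compared gave 149 to 248 genes over the 3 arms, 7 to 43 with vehicle, 9 to 19 with cabazitaxel and 7 to 21 with docetaxel. Replicate numbers were shared by all groups. Deviations of same-numbered arrays correlated at -0.05 to 0.33 between groups. Among the charcoal-serum groups and the full-serum vehicle group they correlated at 0.20 to 0.33. Whether same-numbered arrays belong together was not tested, and the main fit did not pair them. With the replicate number as a block, 7 of the 10 genes were called over the 3 arms, as without it. That block gave 70 and 62 of all genes in the vehicle and docetaxel arms, in place of 44 and 35. No called difference of the 10 genes changed sign under any alternative. Sign changes of uncalled values were not counted as reversals. Near the background, where MAF and FKBP5 lay closest among the 10 genes, array signal limits the size of a difference that can be seen. GNMT, with a charcoal-serum median of 35.1, lay near NDRG1 at 36.5 and EAF2 at 37.5.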
